A study of Homo sapiens with 12 samples.

Results

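The enzymes that build and modify heparan sulfate and chondroitin sulfate were followed in 12 samples of MDA-MB-231 cells, an established human breast cancer line of the mesenchymal, triple-negative kind. The set names 38 genes, and 37 of them were measured, among 18417 genes in all. A gene was taken where a feature of the array was annotated to that gene alone, and where several features named it, the feature with the highest mean over the 12 arrays was used. HS6ST1 was the only member with 2 such features, and NDST2 had none. The genes were grouped by role: the linkage region, chain polymerisation, sulfation and epimerisation, extracellular desulfation, and sulfation of tyrosines.

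TTR cells are MDA-MB-231 cells that had been treated to resistance, and parental cells are the line they came from; the labels used here do not name the agent of that resistance or say whether TTR cells are a clone. The 4 groups had 3 arrays each: TTR cells given TRAIL at 100 ng/ml for 2 h, TTR cells without TRAIL, parental cells given TRAIL at 100 ng/ml for 2 h, and parental cells without TRAIL. TRAIL is a death ligand that binds receptors on the cell surface and can start apoptosis. Nothing in the labels says that the 3 replicates of a group were separate cultures, so the p-values measure the spread between these samples, which may be technical. A part of the array descriptions differed between the TTR and the parental arrays in the same way as the line did, so anything tied to that part and the line cannot be told apart.

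Levels are log2 values, and a difference of 1 is a 2-fold change. Arrays of 1 group correlated at 0.989 to 0.995 over all features, and the parental arrays with TRAIL correlated with arrays of other groups at 0.921 to 0.963, against 0.984 to 0.992 among those other groups. Array medians over all features shifted by 0.107 with TRAIL in TTR cells and by 0.29 with TRAIL in parental cells. Parental results with TRAIL are therefore also given after each array was centred on its median or quantile normalised. The parental shift was not the same at all levels. The upper quartile over all features was 6.649 to 6.691 on untreated parental arrays and 6.545 to 6.593 with TRAIL. The median over genes was 5.016 to 5.064 untreated and 5.117 to 5.147 with TRAIL. Centring moves all levels of an array alike. Whether its shift holds at the members' levels was not tested, so a call lost after centring need not be one of scaling. Genes that mark MDA-MB-231 cells were at 7.40 for ZEB1 to 11.55 for VIM on average, and markers of fibroblasts and endothelium had a median of 3.72. Markers of luminal breast cells had a median of 4.14, but KRT8 was at 10.67, KRT18 at 10.55 and KRT19 at 8.06. Markers of blood cells had a median of 3.41, but CD68 was at 9.33. Of 14 genes of unrelated tissues, which stand for background signal, 4 were called higher and 0 lower with TRAIL in parental cells. Of all genes, 28.9% were called higher and 29.9% lower there. The median of the 14 was 3.52 to 3.59 on the parental arrays with TRAIL and 3.35 to 3.40 on the untreated parental arrays. The part of this in the results of members near background, such as XYLT1, HS6ST2 and SULF2, was not tested. The median over the 8 MDA-MB-231 genes was 9.67 to 10.02 on the parental arrays with TRAIL and 10.76 to 10.83 on the untreated parental arrays; its part in the results was not tested.

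Heparan sulfate and chondroitin sulfate are long sugar chains carried by core proteins at the cell surface and in the matrix. Both start on the same linkage region, which is built on a serine from xylose, galactose and glucuronic acid, and the next sugar decides which of the chains follows. The chains are then sulfated and epimerised in the Golgi, and the pattern of sulfate groups sets which growth factors, chemokines and enzymes they bind.

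With TRAIL, 31 of the 37 members changed in parental cells, 17 higher and 14 lower, at an adjusted p under 0.05 in limma. Of all 18417 genes, 58.8% were called in that comparison, 28.9% higher and 29.9% lower, and of the members 83.8%. Leaving out the 33.3% of genes with the lowest mean level, 27 of 32 members were called, against 76.1% of genes. Of the members, 7 fell at least 2-fold (UGDH, GLCE, EXTL3, HS2ST1, EXTL2, DSE and EXT2) and 1, HS6ST1, rose that far. The share of all genes that moved 2-fold was not counted, in this line or in TTR cells. The median change was 0.10 over the members and 0.06 over all genes. After centring each array on its median, 6 members were called higher and 16 lower, and 59.4% of all genes were called. After quantile normalisation it was 17 and 11 members, and 50.5% of all genes. The higher share of the calls was 27.3% of the members' and 21.3% of all genes' after centring, 60.7% and 37.9% after quantile normalisation, and 54.8% and 49.1% as deposited. The 6 called higher under all 3 scalings were XYLT1, B3GALT6, HS6ST1, HS3ST3A1, CHST12 and CHST13.

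In TTR cells the same dose and time changed 4 members: HS6ST1 rose, and GLCE, UGDH and HS2ST1 fell. Of all genes, 5.82% were called, 3.27% higher and 2.55% lower. No member moved 2-fold in TTR cells, and the median change was -0.03 over the members and -0.01 over all genes. Deviations of same-numbered arrays correlated at 0.32, 0.15 and 0.40 in this comparison, though the labels do not call them pairs. Fitting the 2 TTR groups with the replicate number as a block called 7 members (14.5% of all genes were called). That added CHST3 at 0.48, UST at -0.33 and TPST1 at -0.35. The count was 1 without TTR untreated replicate 2 or 3 or TTR TRAIL replicate 1 or 2, 2 without any of the 3 untreated parental arrays, and 4 with all arrays.

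The change with TRAIL differed between the lines for 17 members, 9 with a higher and 8 with a lower value in TTR than in parental cells. Of all genes, 37.2% were called in this difference. For all 17 the change lay nearer to 0 in TTR cells; 4 of them were called the same way in both lines and 13 in parental cells alone. The 14 members that fell in parental cells had a change below 0 in TTR cells too, with a median of -0.23 in TTR cells and -1.0 in parental cells, and 12 of the 17 that rose in parental cells had a change above 0, with medians of 0.07 in TTR cells and 0.49 in parental cells. Neither the nearness to 0 nor the shared calls and directions were counted over all genes. With TRAIL, 58.8% of all genes were called in parental cells and 5.82% in TTR cells.

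**Figure D1:**
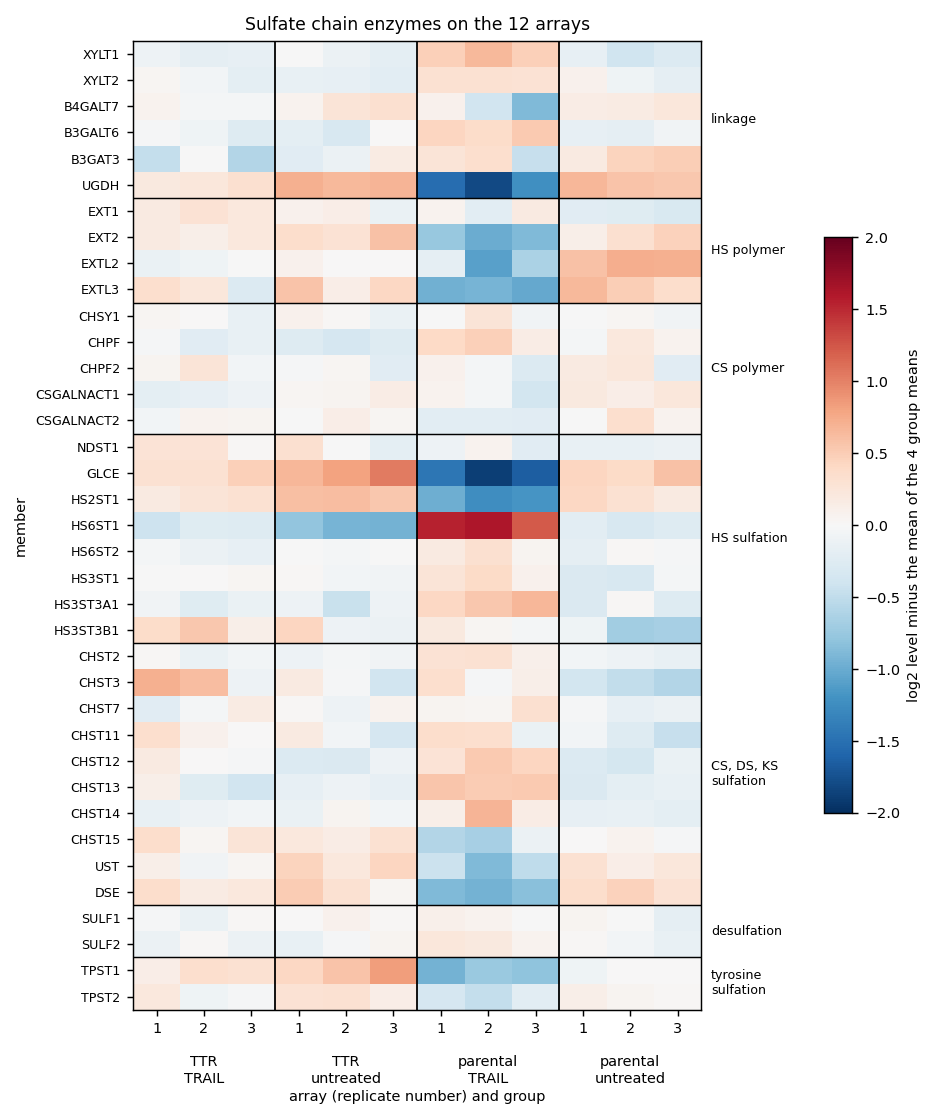
Level of the 37 members on each of the 12 arrays, as log2 level minus the mean of that gene's 4 group means, with genes ordered by role. The parental arrays with TRAIL stand apart: HS6ST1 is above its mean there and UGDH, GLCE, HS2ST1, DSE, EXT2, EXTL2 and EXTL3 are below it.

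The promoters of the 4 members called with TRAIL in both lines are shown because these were called in both in the fit without the replicate block, 3 lower and 1 higher. Each is written 5′ to 3′ on the gene's strand and covers 250 bases before to 50 after the start of the RefSeq gene, in GRCh38.p14: UGDH at chr4:39527390-39527689 on the minus strand, GLCE at chr15:69160385-69160684 on the plus strand, HS2ST1 at chr1:86914385-86914684 on the plus strand and HS6ST1 at chr2:128318819-128319118 on the minus strand. Capitals mark GC boxes (GGGCGG on either strand) and CCAAT boxes (CCAAT on either strand).
UGDH: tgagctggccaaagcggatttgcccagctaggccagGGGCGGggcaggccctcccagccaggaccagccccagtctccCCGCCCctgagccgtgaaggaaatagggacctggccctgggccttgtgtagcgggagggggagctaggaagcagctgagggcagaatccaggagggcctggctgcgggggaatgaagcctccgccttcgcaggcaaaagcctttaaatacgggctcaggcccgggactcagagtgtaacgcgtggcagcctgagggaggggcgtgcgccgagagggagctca
GLCE: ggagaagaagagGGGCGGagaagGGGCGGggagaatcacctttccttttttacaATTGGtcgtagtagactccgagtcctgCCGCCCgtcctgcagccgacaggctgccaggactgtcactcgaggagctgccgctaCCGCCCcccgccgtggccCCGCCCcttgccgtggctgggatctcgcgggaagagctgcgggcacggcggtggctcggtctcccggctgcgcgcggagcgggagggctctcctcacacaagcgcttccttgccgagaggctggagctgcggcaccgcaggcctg
HS2ST1: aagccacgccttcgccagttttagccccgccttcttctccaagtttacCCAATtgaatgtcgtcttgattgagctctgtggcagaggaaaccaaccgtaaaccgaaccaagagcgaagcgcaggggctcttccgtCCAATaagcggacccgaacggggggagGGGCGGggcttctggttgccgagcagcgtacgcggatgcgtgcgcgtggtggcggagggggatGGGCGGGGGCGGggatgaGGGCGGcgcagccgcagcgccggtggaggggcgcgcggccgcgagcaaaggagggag
HS6ST1: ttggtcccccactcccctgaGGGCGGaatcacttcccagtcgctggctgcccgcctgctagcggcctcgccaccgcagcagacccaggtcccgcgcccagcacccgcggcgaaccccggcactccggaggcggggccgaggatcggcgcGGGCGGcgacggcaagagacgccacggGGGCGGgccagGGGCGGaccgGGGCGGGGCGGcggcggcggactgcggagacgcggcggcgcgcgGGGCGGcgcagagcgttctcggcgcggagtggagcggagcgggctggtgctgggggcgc

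RefSeq promoters were matched for 33 of the measured members and for 14239 of the genes tested. A GC box was in 30 of the 33 member promoters, against 60.0% of all promoters, and a CCAAT box was in 12, against 36.3%. The letters TGANTCA of an AP-1 site were in 2 member promoters, against 5.58% of all, and TGACGTCA of a CRE in 3, against 2.65%. CACGTG of an E-box was in 4, against 8.88%, and TATAAA in 1, against 9.0%. GCGTGGGCG, the letters searched for EGR1, was in 0, against 1.16%, and a 10-base NF-kB consensus was in 0, against 0.183%. The motifs were searched on both strands, a GC box can overlap another, and they were chosen with the expression results known. The median GC content was 70.0% in the member promoters and 63.0% in all promoters. It was 73.2% in the 16 members with a promoter that rose with TRAIL in parental cells and 66.3% in the 12 that fell, while over all genes it was 65.0% in those that rose and 65.0% in those that fell. GC content and the parental change with TRAIL had a Spearman correlation of 0.50 over the 33 members and -0.0 over all 14239 genes. With the change in TTR cells it was 0.32 over the members and 0.01 over all genes. Genes on the same arrays are not independent and no test was made.

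Among the 6 enzymes of the linkage region and its sugar supply, TRAIL in parental cells raised 3 and lowered 2. UGDH, which makes the glucuronic acid donor that both chains use, had the strongest fall in this role. It stood at 9.10, 9.12 and 9.22 in TTR cells with TRAIL and at 9.60, 9.54 and 9.57 in untreated TTR cells, and at 7.37, 7.09 and 7.67 in parental cells with TRAIL against 9.56, 9.47 and 9.44 in untreated parental cells. The parental arrays with TRAIL lay below all others, and in both lines the groups did not overlap. The change was -0.43 ± 0.12 (SE) in TTR cells (adjusted p = 0.0481) and -2.11 ± 0.12 in parental cells (adjusted p = 4.59e-10), a difference between the lines of 1.69 (adjusted p = 2.14e-06). The call in TTR cells was lost without any 1 of 10 arrays, all but parental TRAIL replicates 2 and 3 (adjusted p of 0.0537 to 0.157), and after quantile normalisation (0.0539).

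XYLT1, a xylosyltransferase that begins the linkage region, stood at 3.5, 3.42 and 3.44 in TTR cells with TRAIL and at 3.60, 3.49 and 3.41 in untreated TTR cells, and at 4.08, 4.26 and 4.08 in parental cells with TRAIL against 3.44, 3.21 and 3.33 in untreated parental cells. It rose by 0.81 ± 0.10 in parental cells (adjusted p = 1.75e-06), while the change in TTR cells was -0.05 ± 0.10 (0.858), and the lines differed by -0.86. All its group means were under 4.54, the mean of MYOG, which was the highest of the genes of unrelated tissues, so its level cannot be told from background. B3GALT6, which adds the second galactose, stood at 5.87, 5.80 and 5.63 in TTR cells with TRAIL and at 5.70, 5.57 and 5.90 in untreated TTR cells, and at 6.32, 6.26 and 6.43 in parental cells with TRAIL against 5.73, 5.71 and 5.82 in untreated parental cells. It rose by 0.58 ± 0.11 in parental cells, above every other array, and the difference between the lines of -0.53 was lost after centring (adjusted p = 0.0711).

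XYLT2, the second xylosyltransferase, averaged 6.23 in parental cells with TRAIL and 5.87 in untreated parental cells, and its rise of 0.36 was lost after centring (adjusted p = 0.582). B4GALT7, which adds the linkage region's first galactose, stood at 6.94, 6.47 and 5.96 in parental cells with TRAIL and averaged 7.02 in untreated parental cells. Its change of -0.56 (adjusted p = 0.00859) was -0.32 (0.0485) without parental TRAIL replicate 3, the lowest array, and the call was lost after quantile normalisation (0.0525). B3GAT3, which adds the glucuronic acid that completes the region, averaged 6.22 in parental cells with TRAIL and 6.55 in untreated parental cells and was not called (adjusted p = 0.146), except after centring (0.00940).

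The role named heparan sulfate polymerisation holds 4 enzymes of unlike steps. EXT1 and EXT2 lengthen the chain, EXTL3 commits the linkage region to it, and EXTL2 can cap that region. All 4 were called in parental cells, EXT2, EXTL2 and EXTL3 lower and EXT1 higher. None was called in TTR cells, where 0 had an unadjusted p under 0.05. The median change over the 4 was -0.17 in TTR cells and -1.25 in parental cells; after centring the parental median was -1.54 and after quantile normalisation -1.19, and the 3 that fell did so under all 3 scalings.

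EXT2 is the partner of EXT1 in the complex that lengthens the chain. EXT2 stood at 9.29, 9.23 and 9.33 in TTR cells with TRAIL and at 9.47, 9.39 and 9.70 in untreated TTR cells, and at 8.36, 8.11 and 8.22 in parental cells with TRAIL against 9.24, 9.44 and 9.57 in untreated parental cells. Its change was -0.24 ± 0.11 in TTR cells (adjusted p = 0.243) and -1.18 ± 0.11 in parental cells (1.15e-07), and the lines differed by 0.95 (0.000169). EXT1, the catalytic partner, averaged 9.64 in TTR cells with TRAIL, 9.44 in untreated TTR cells, 9.43 in parental cells with TRAIL and 9.16 in untreated parental cells. Its rise of 0.27 in parental cells (adjusted p = 0.0464) was lost without any 1 of 10 arrays, all but parental TRAIL replicate 2 and TTR untreated replicate 3 (0.0503 to 0.191), and after centring the change was -0.02.

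EXTL3 adds the sugar that commits the linkage region to heparan sulfate. It stood at 5.90, 5.78 and 5.29 in TTR cells with TRAIL and at 6.13, 5.69 and 5.98 in untreated TTR cells, where the groups overlapped, and at 4.59, 4.63 and 4.53 in parental cells with TRAIL against 6.20, 6.05 and 5.92 in untreated parental cells. The change was -0.28 ± 0.15 in TTR cells (adjusted p = 0.303) and -1.47 ± 0.15 in parental cells (2.17e-07), a difference between the lines of 1.19. EXTL2, which can cap the linkage region, stood at 5.71, 5.77 and 5.84 in TTR cells with TRAIL and at 5.93, 5.87 and 5.87 in untreated TTR cells, and at 5.67, 4.76 and 5.22 in parental cells with TRAIL against 6.44, 6.59 and 6.56 in untreated parental cells. The parental arrays with TRAIL differed widely among themselves, and all lay below the untreated ones. EXTL2 fell by 1.31 ± 0.16 in parental cells (adjusted p = 1.92e-06), and the lines differed by 1.20 (0.000441).

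The 5 enzymes grouped as chondroitin sulfate polymerising, with CSGALNACT1 and CSGALNACT2 that start a chain among them, had small changes. In parental cells 1 was called higher and 2 lower. In TTR cells 0 were called (1 at an unadjusted p under 0.05), and 0 in the difference between the lines (1 at an unadjusted p under 0.05). CHSY1, which lengthens the chain, averaged 7.76 in TTR cells with TRAIL, 7.79 in untreated TTR cells, 7.86 in parental cells with TRAIL and 7.79 in untreated parental cells. Its parental change of 0.08 had a 95% interval of -0.15 to 0.30. CHPF2, a partner of CHSY1, had a parental change of -0.14 with an interval of -0.42 to 0.15, and it was called lower after centring (-0.43, adjusted p = 0.0152), while CHSY1 was called higher after quantile normalisation (0.35, 0.0130).

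CSGALNACT2, which adds the sugar that starts a chondroitin chain, averaged 7.31 in parental cells with TRAIL and 7.66 in untreated parental cells (adjusted p = 0.00652), and its fall was lost after quantile normalisation (0.404). CSGALNACT1, which has the same activity, averaged 2.96 in parental cells with TRAIL and 3.27 in untreated parental cells (adjusted p = 0.0229). That level was below MYOG's, and the call was lost without parental untreated replicate 1 (0.0577) or 3 (0.0652) or parental TRAIL replicate 3 (0.132). CHPF, the chondroitin polymerising factor, averaged 6.99 in parental cells with TRAIL and 6.73 in untreated parental cells; the groups overlapped, and its call (adjusted p = 0.0495) was lost without any 1 of 10 arrays, all but parental untreated replicate 2 and parental TRAIL replicate 3 (0.0552 to 0.182), and turned to -0.04 after centring.

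**Figure D2:**
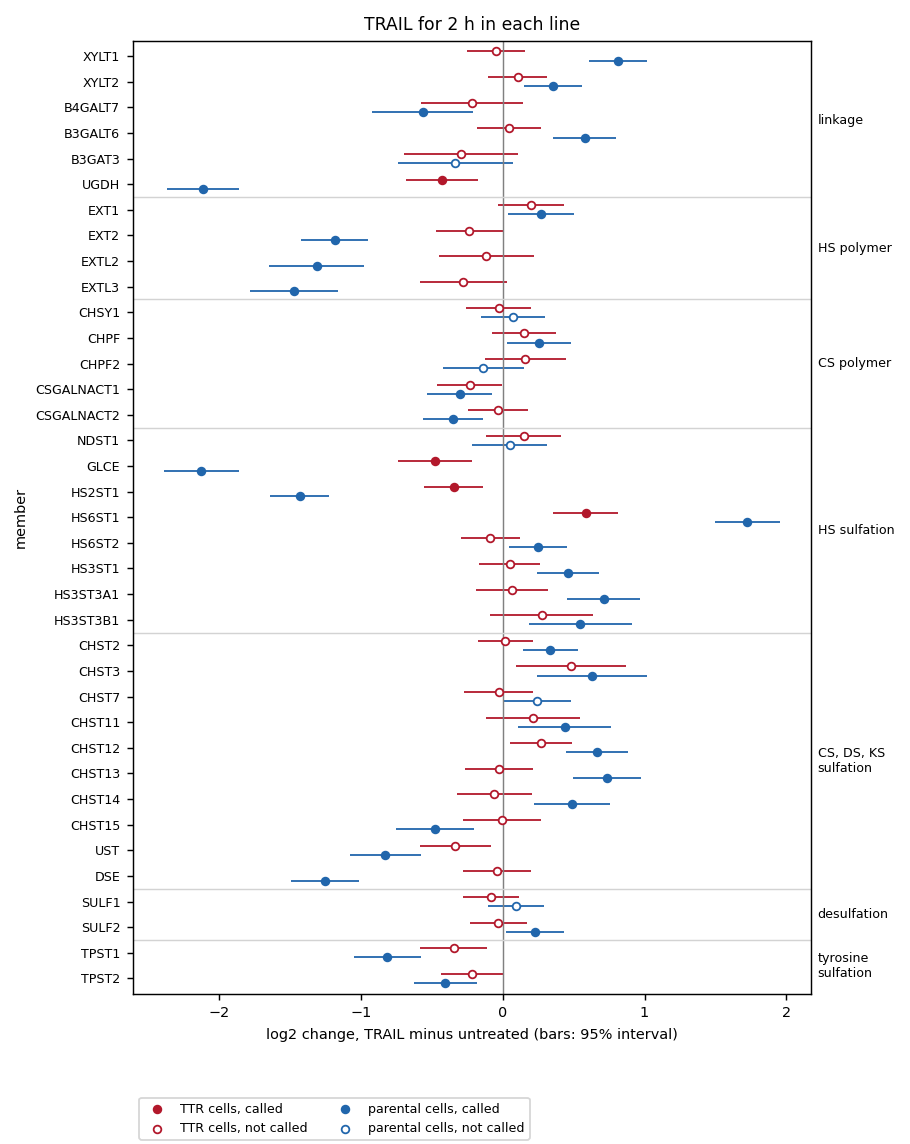
Change with TRAIL, as log2 of TRAIL over untreated with its 95% interval, for the 37 members in TTR and parental cells; filled points have an adjusted p under 0.05 in limma. The parental changes run from -2.13 for GLCE to 1.73 for HS6ST1, and those in TTR cells from -0.48 to 0.59 for the same 2 genes.

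Heparan sulfate sulfating and epimerising enzymes held the widest range of change. In parental cells 5 of the 8 measured rose and 2 fell, in TTR cells 1 rose and 2 fell, and 5 differed between the lines. The 2 that fell, GLCE and HS2ST1, act in sequence in the textbook pathway: GLCE turns glucuronic acid into iduronic acid, and HS2ST1 puts a sulfate on the 2-O position, mostly of iduronic acid.

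GLCE stood at 7.18, 7.18 and 7.36 in TTR cells with TRAIL and at 7.54, 7.68 and 7.93 in untreated TTR cells, and at 5.43, 4.99 and 5.23 in parental cells with TRAIL against 7.31, 7.27 and 7.46 in untreated parental cells. In neither line did the groups overlap, and the fall in parental cells was 4.36-fold. The change was -0.48 ± 0.12 in TTR cells (adjusted p = 0.0350) and -2.13 ± 0.12 in parental cells (6.15e-10), and the lines differed by 1.65 (3.25e-06). In TTR cells the call was lost without TTR untreated replicate 2 (adjusted p = 0.0923) or 3 (0.149) or TTR TRAIL replicate 1 (0.124) or 2 (0.137), and after quantile normalisation (0.0514).

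HS2ST1 stood at 6.75, 6.83 and 6.87 in TTR cells with TRAIL and at 7.18, 7.19 and 7.12 in untreated TTR cells, and at 5.59, 5.34 and 5.40 in parental cells with TRAIL against 6.98, 6.88 and 6.76 in untreated parental cells. Both lines had all arrays with TRAIL below all without. The change was -0.35 ± 0.10 in TTR cells (adjusted p = 0.0488) and -1.43 ± 0.10 in parental cells (3.03e-09), and the lines differed by 1.08 (1.48e-05). The call in TTR cells was lost without any 1 of the 9 arrays other than parental TRAIL (0.0540 to 0.179) and with a trended, robust variance prior (0.0647).

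HS6ST1, a 6-O-sulfotransferase, moved the other way. It stood at 6.46, 6.63 and 6.62 in TTR cells with TRAIL and at 6.09, 5.94 and 5.92 in untreated TTR cells, and at 8.42, 8.49 and 8.10 in parental cells with TRAIL against 6.66, 6.56 and 6.62 in untreated parental cells. In both lines all arrays with TRAIL lay above all without, and the mean with TRAIL was 6.57 in TTR cells and 8.34 in parental cells. The rise was 0.59 ± 0.11 in TTR cells (adjusted p = 0.00411) and 1.73 ± 0.11 in parental cells (1.26e-09), a difference between the lines of -1.14 (2.39e-05), and all 3 calls held under every alternative run. Its other feature gave 0.43 in TTR cells and 1.18 in parental cells. RefSeq also lists a pseudogene of HS6ST1, whose transcripts these features may not tell apart from it. HS6ST2, with the same activity, stayed near background, averaging 2.78 in parental cells with TRAIL and 2.53 in untreated parental cells; its call (adjusted p = 0.0379) was lost without parental untreated replicate 1 (0.161) or 3 (0.0517) or parental TRAIL replicate 1 (0.0632) or 2 (0.140), and after centring the change was -0.04.

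The 3-O-sulfotransferases make the rarest sulfation, and the 3 of the set were called higher in parental cells. HS3ST3A1 stood at 5.56, 5.38 and 5.49 in TTR cells with TRAIL and at 5.52, 5.18 and 5.52 in untreated TTR cells, and at 6.03, 6.17 and 6.29 in parental cells with TRAIL against 5.33, 5.66 and 5.37 in untreated parental cells. It rose by 0.71 ± 0.12 in parental cells (adjusted p = 8.04e-05) and its change in TTR cells was 0.07, a difference of -0.65 (0.00679). HS3ST1, which makes the antithrombin-binding site of heparin, stood at 5.76, 5.77 and 5.81 in TTR cells with TRAIL and at 5.79, 5.71 and 5.70 in untreated TTR cells, and at 6.02, 6.15 and 5.86 in parental cells with TRAIL against 5.47, 5.45 and 5.73 in untreated parental cells. Its parental rise of 0.46 was lost after centring (adjusted p = 0.162), and its difference between the lines of -0.41 (0.0355) was lost without any 1 of 9 arrays, all but replicate 3 of parental untreated, parental TRAIL and TTR untreated (0.0521 to 0.0902).

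HS3ST3B1 has a catalytic domain close to that of HS3ST3A1, so the features may share signal and both values are uncertain. It averaged 5.88 in parental cells with TRAIL and 5.34 in untreated parental cells (adjusted p = 0.0117), and the call was lost after centring (0.209) and without parental untreated replicate 2 (0.0622) or 3 (0.0545). NDST1, which removes acetyl groups and adds N-sulfate before the other steps, averaged 8.26 in TTR cells with TRAIL, 8.11 in untreated TTR cells, 7.99 in parental cells with TRAIL and 7.93 in untreated parental cells. Its parental change of 0.05 had a 95% interval of -0.21 to 0.32 and was called after quantile normalisation (0.32, adjusted p = 0.0406).

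Among the 10 enzymes that sulfate or epimerise chondroitin, dermatan and keratan chains, 6 rose and 3 fell in parental cells. None was called in TTR cells, where 3 had an unadjusted p under 0.05, and 5 differed between the lines. DSE, the epimerase that turns chondroitin into dermatan sulfate, stood at 6.91, 6.73 and 6.78 in TTR cells with TRAIL and at 7.07, 6.88 and 6.60 in untreated TTR cells, and at 5.68, 5.62 and 5.74 in parental cells with TRAIL against 6.91, 7.02 and 6.86 in untreated parental cells. Only the parental arrays with TRAIL stood apart. The change was -0.04 ± 0.11 in TTR cells and -1.25 ± 0.11 in parental cells (adjusted p = 6.83e-08), and the lines differed by 1.21 (2.00e-05).

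UST, which sulfates uronic acids at the 2-O position in chondroitin and dermatan chains, stood at 5.05, 4.87 and 4.98 in TTR cells with TRAIL and at 5.39, 5.15 and 5.37 in untreated TTR cells, and at 4.50, 4.06 and 4.42 in parental cells with TRAIL against 5.24, 5.07 and 5.16 in untreated parental cells. The change was -0.33 ± 0.12 in TTR cells (adjusted p = 0.113, and 0.0261 with the replicate block) and -0.83 ± 0.12 in parental cells (1.45e-05). The difference between the lines of 0.49 (adjusted p = 0.0291) was lost without parental untreated replicate 1 (0.0709) or 3 (0.0508), parental TRAIL replicate 2 (0.0681), TTR untreated replicate 2 (0.0806), or TTR TRAIL replicate 1 (0.0714) or 3 (0.0540). CHST15, which adds a 6-O-sulfate to 4-O-sulfated units, averaged 7.44 in TTR cells with TRAIL, 7.44 in untreated TTR cells, 6.76 in parental cells with TRAIL and 7.24 in untreated parental cells; its parental fall (adjusted p = 0.00473) was lost after quantile normalisation (0.0749).

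The chondroitin 4-O-sulfotransferases CHST11, CHST12 and CHST13 were all called higher in parental cells. CHST13 stood at 5.26, 4.90 and 4.77 in TTR cells with TRAIL and at 4.98, 5.05 and 4.98 in untreated TTR cells, and at 5.71, 5.65 and 5.67 in parental cells with TRAIL against 4.87, 4.96 and 5.01 in untreated parental cells. It rose by 0.73 ± 0.11 in parental cells (adjusted p = 2.99e-05), and the lines differed by -0.76 (0.00127). CHST12 stood at 6.59, 6.43 and 6.39 in TTR cells with TRAIL and at 6.15, 6.14 and 6.32 in untreated TTR cells, and at 6.70, 6.95 and 6.86 in parental cells with TRAIL against 6.15, 6.07 and 6.29 in untreated parental cells. Arrays with TRAIL lay above untreated ones in both lines, by 0.27 in TTR cells (adjusted p = 0.142) and by 0.66 in parental cells (3.53e-05). The difference of -0.39 (adjusted p = 0.0447) was lost without any 1 of 8 arrays, all but parental untreated 3, parental TRAIL 1, TTR untreated 1 and TTR TRAIL 1 (0.0509 to 0.108). CHST11 averaged 9.22 in parental cells with TRAIL and 8.78 in untreated parental cells; the groups overlapped, and the call (adjusted p = 0.0234) was lost after centring (0.430) and without parental untreated 2 (0.0526) or 3 (0.107) or parental TRAIL 1 (0.0927) or 2 (0.0956).

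CHST14, which sulfates dermatan at the 4-O position, stood at 6.57, 6.62 and 6.68 in TTR cells with TRAIL and at 6.60, 6.77 and 6.68 in untreated TTR cells, and at 6.84, 7.41 and 6.88 in parental cells with TRAIL against 6.56, 6.57 and 6.54 in untreated parental cells. Parental TRAIL replicate 2 was the highest array, and without it the parental change was 0.30. The rise of 0.49 in parental cells was lost after centring (adjusted p = 0.187), and the difference between the lines of -0.55 was lost after centring (0.130) and without TTR untreated replicate 2 (0.0590) or TTR TRAIL replicate 1 (0.0532). CHST3, the chondroitin 6-O-sulfotransferase, averaged 5.93 in TTR cells with TRAIL, 5.45 in untreated TTR cells, 5.67 in parental cells with TRAIL and 5.04 in untreated parental cells. It rose by 0.63 in parental cells (adjusted p = 0.00747; 0.128 after centring); its change of 0.48 in TTR cells had an adjusted p of 0.141, and of 0.0134 without TTR TRAIL replicate 3. CHST2, which sulfates N-acetylglucosamine, rose by 0.34 in parental cells (adjusted p = 0.00490; 0.698 after centring), and CHST7, a 6-O-sulfotransferase, had a change of 0.24 and was not called (0.0813).

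SULF1 and SULF2, which cut 6-O-sulfates from heparan sulfate outside the cell, were near background on every array. SULF1 averaged 2.49 in TTR cells with TRAIL, 2.57 in untreated TTR cells, 2.59 in parental cells with TRAIL and 2.49 in untreated parental cells and was called in no comparison. SULF2 averaged 3.14 in TTR cells with TRAIL, 3.17 in untreated TTR cells, 3.37 in parental cells with TRAIL and 3.14 in untreated parental cells. Its parental call (adjusted p = 0.0498) was lost without any 1 of 9 arrays, all but parental untreated 1, parental TRAIL 3 and TTR untreated 1 (0.0507 to 0.164), and after centring the change was -0.06.

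TPST1 and TPST2 sulfate tyrosines of secreted and membrane proteins and draw on the same sulfate donor as the chain enzymes. TPST1 stood at 6.81, 7.01 and 6.99 in TTR cells with TRAIL and at 7.09, 7.24 and 7.52 in untreated TTR cells, and at 5.73, 5.93 and 5.87 in parental cells with TRAIL against 6.60, 6.68 and 6.69 in untreated parental cells. Arrays with TRAIL lay below the untreated ones in both lines, with no overlap. The change was -0.35 ± 0.11 in TTR cells (adjusted p = 0.0843, and 0.0343 with the replicate block) and -0.81 ± 0.11 in parental cells (9.79e-06). The difference of 0.47 (adjusted p = 0.0296) was lost without any 1 of 7 arrays (0.0570 to 0.0788): parental untreated 2 and 3, parental TRAIL 1, TTR untreated 1 and 2, and TTR TRAIL 2 and 3. TPST2 averaged 6.60 in TTR cells with TRAIL, 6.81 in untreated TTR cells, 6.23 in parental cells with TRAIL and 6.63 in untreated parental cells, a parental fall with an adjusted p of 0.00343.

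**Figure D3:**
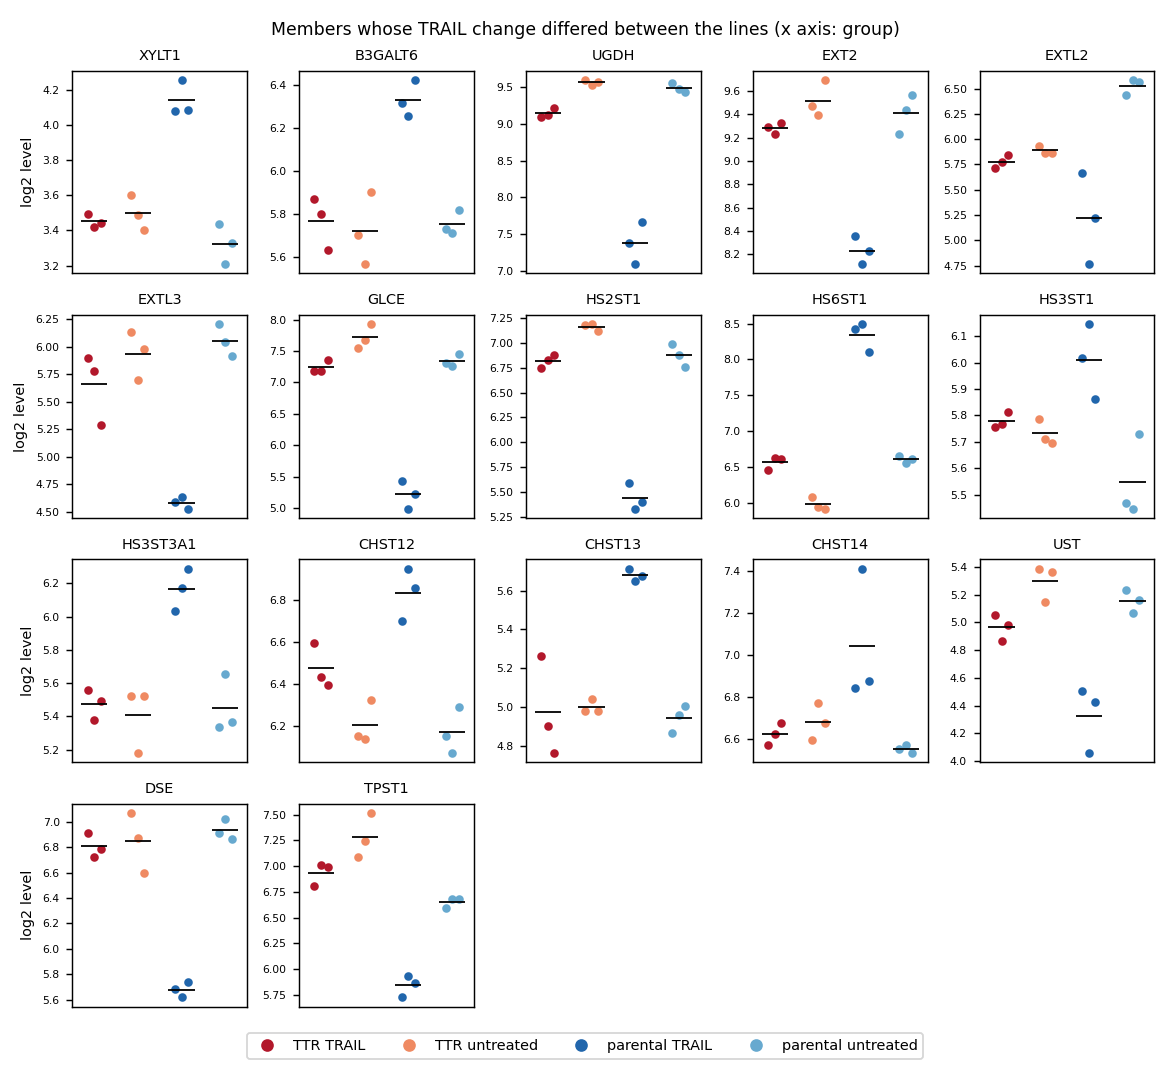
Log2 level on each array for the 17 members whose change with TRAIL differed between the lines; points are arrays and lines are group means. In every panel the gap between TRAIL and untreated is wider in parental than in TTR cells.

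**Figure D4:**
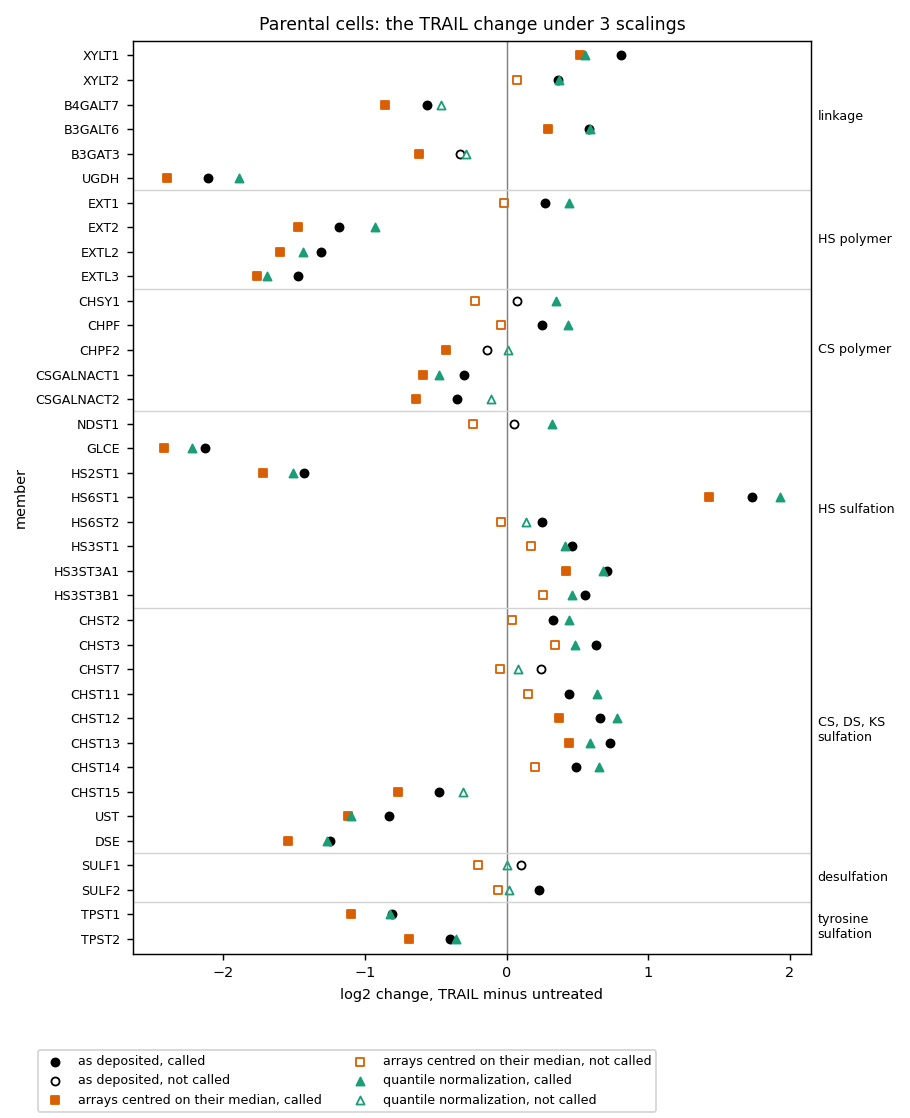
Change with TRAIL in parental cells for the 37 members under 3 scalings, as deposited, centred on array medians and quantile normalised, as log2 of TRAIL over untreated. Of the members called as deposited, EXT1, CHPF, HS6ST2 and SULF2 lie above 0 as deposited and below 0 after centring, as do CHSY1, NDST1, CHST7 and SULF1 of those not called, while the strong falls and the rise of HS6ST1 stay on their side.

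Without TRAIL, TTR and parental cells differed in 4 members, 1 higher and 3 lower in TTR cells, where 7.11% of all genes were called, 3.64% higher and 3.47% lower. TPST1 was 0.63 ± 0.11 higher in TTR cells (adjusted p = 0.00234). HS6ST1 was 0.63 ± 0.11 lower in TTR cells (adjusted p = 0.00176), and its 3 TTR arrays, at 5.92 to 6.09, lay below the 3 parental arrays, at 6.56 to 6.66. Both calls held under every alternative run. EXTL2 was 0.64 ± 0.16 lower in TTR cells (adjusted p = 0.0195), with arrays at 5.87 to 5.93 in TTR cells and 6.44 to 6.59 in parental cells. CHPF stood at 6.39, 6.31 and 6.39 in untreated TTR cells against 6.61, 6.87 and 6.71 in untreated parental cells, a difference of -0.37 (adjusted p = 0.0471).

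The call of EXTL2 was lost without parental untreated replicate 2 (adjusted p = 0.0757) or 3 (0.0631) or TTR untreated replicate 2 (0.0697) or 3 (0.0557), and after quantile normalisation (0.0607). That of CHPF was lost without any 1 of 10 arrays, all but parental TRAIL 2 and 3 (0.0501 to 0.197). It was also lost after centring (0.056), after quantile normalisation (0.0761), with a trended, robust variance prior (0.0581) and in the fit of only the groups compared (0.0506). Without any 1 of the 4 arrays named for EXTL2 the count of members called was 2. Several members lay higher in TTR cells without passing: GLCE by 0.37 (adjusted p = 0.0894), HS2ST1 by 0.29 (0.0916) and HS3ST3B1 by 0.55 (0.0641; 0.0155 without parental untreated replicate 1). None of the 6 linkage-region enzymes and none of the 10 that modify chondroitin chains was called, with 1 in each role at an unadjusted p under 0.05.

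**Figure D5:**
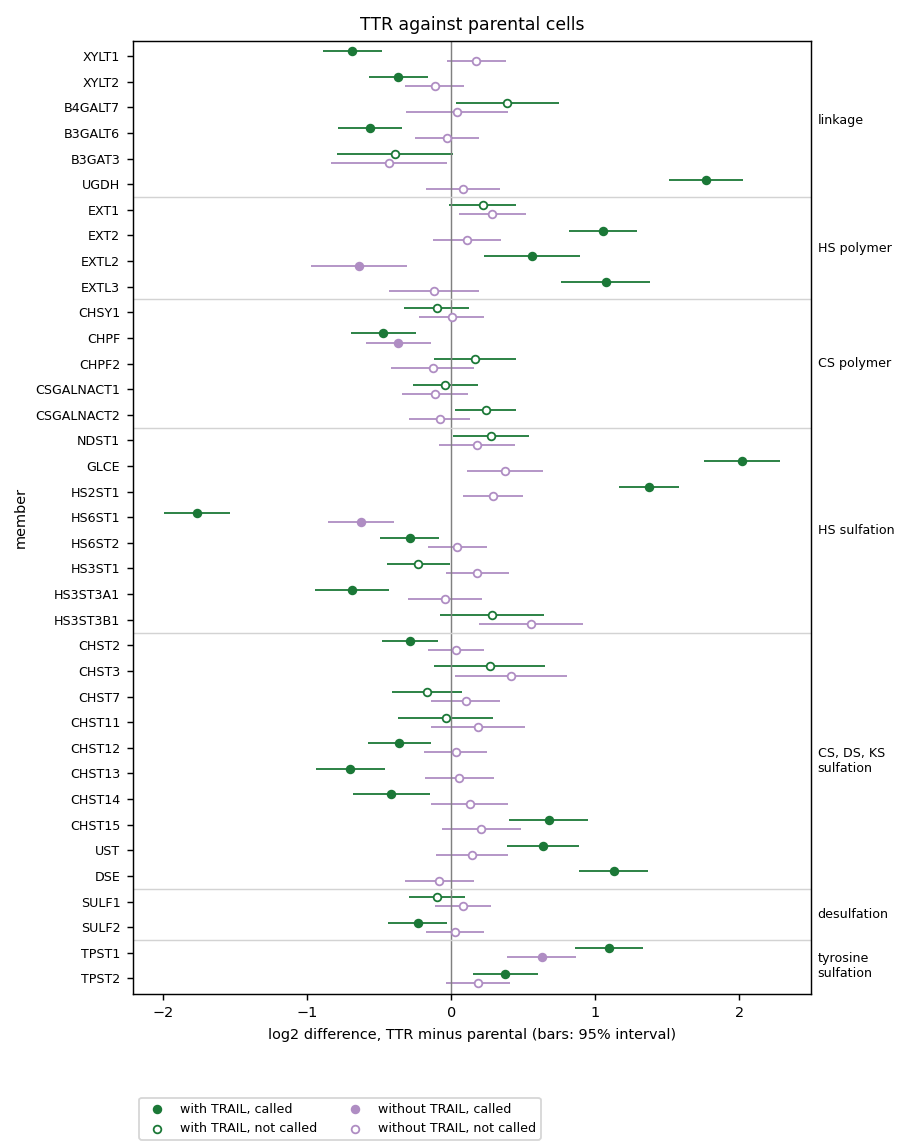
TTR over parental cells as log2 with the 95% interval, for the 37 members with and without TRAIL; filled points have an adjusted p under 0.05 in limma. Without TRAIL the differences run from -0.64 for EXTL2 to 0.63 for TPST1, and with TRAIL from -1.77 for HS6ST1 to 2.02 for GLCE.

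With TRAIL in both, 23 members differed between TTR and parental cells, 11 higher and 12 lower in TTR cells; 54.4% of all genes were called, 28.0% higher and 26.4% lower. This comparison uses the same parental arrays with TRAIL as the TRAIL comparison in parental cells, so the values are not a second measurement of that change. GLCE was 2.02 higher in TTR cells, UGDH 1.77, HS2ST1 1.38, DSE 1.13, TPST1 1.10, EXTL3 1.07 and EXT2 1.05. HS6ST1 was lower in TTR cells by 1.77, as its mean was 6.57 in TTR cells and 8.34 in parental cells. CHST13, XYLT1 and HS3ST3A1 had differences of -0.70, -0.69 and -0.69. After centring, 18 members were called higher and 6 lower, so that 75% of the members' calls and 74.1% of all genes' calls were higher in TTR cells. Of the 23 calls, 17 held under every alternative run, 11 higher and 6 lower.

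Genes that supply sulfate, its activated donor and the sugar nucleotides were measured for 16 of 18 listed. With TRAIL in parental cells 2 rose and 13 fell, with a median change of -0.84, and in TTR cells 0 rose and 1 fell. The called share of the list was 93.8% in parental and 6.25% in TTR cells, against 58.8% and 5.82% of all genes. The parental split was 2 and 13 after centring and 1 and 13 after quantile normalisation. The sulfate donor transporter SLC35B2 averaged 8.23 in TTR cells with TRAIL and 8.67 in untreated TTR cells, and 7.22 in parental cells with TRAIL against 8.76 in untreated parental cells. Its change was -0.44 ± 0.10 in TTR cells (adjusted p = 0.0179) and -1.54 ± 0.10 in parental cells (1.72e-09); the TTR call was lost without TTR untreated replicate 2 or 3 or TTR TRAIL replicate 1 or 2 (adjusted p up to 0.0918). UGP2, which makes UDP-glucose, the substrate of UGDH, fell by 1.84 in parental cells, and SLC35B1, a transporter of nucleotides in the endoplasmic reticulum, by 1.30. Without TRAIL, 4 of the 16 were higher in TTR cells and 0 lower, which was 25% of the list against 7.11% of all genes. PAPSS2, which makes the activated sulfate donor, was higher by 0.76, UXS1, which makes UDP-xylose, by 0.50 and the sulfate transporter SLC26A6 by 0.40. The call of PAPSS2 was lost without parental untreated replicate 3 or TTR untreated replicate 1 (adjusted p up to 0.0653), and that of UXS1 without parental untreated replicate 1 or 2 or TTR untreated replicate 2 or 3 (up to 0.0976).

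SLC26A2, the sulfate transporter that chondroitin sulfation in cartilage depends on, averaged 6.30 in TTR cells with TRAIL and 6.69 in untreated TTR cells, and 5.12 in parental cells with TRAIL against 6.32 in untreated parental cells. Its change was -0.40 ± 0.16 in TTR cells (adjusted p = 0.152) and -1.20 ± 0.16 in parental cells (4.69e-06), and the lines differed by 0.81 (0.00840). Without TRAIL it was 0.38 higher in TTR cells and not called (adjusted p = 0.189), and with TRAIL it was 1.18 higher.

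Proteoglycan core proteins, the carriers of the chains, were measured for 27 of 28 listed. With TRAIL 11 rose and 6 fell in parental cells, and 2 rose and 0 fell in TTR cells. That was 63% of the list in parental and 7.41% in TTR cells, near the 58.8% and 5.82% of all genes. The parental split depended on the scaling. After centring 4 were called higher and 10 lower, and after quantile normalisation 6 and 5. AGRN, the basement membrane proteoglycan agrin, had a mean of 6.37 in TTR cells with TRAIL and 5.75 in untreated TTR cells (adjusted p = 0.00666), and 7.32 in parental cells with TRAIL against 5.76 in untreated parental cells (1.44e-08). HSPG2, perlecan, rose by 0.58 in TTR cells (adjusted p = 0.00380) and by 0.88 in parental cells (2.13e-06), and the difference between the lines did not pass the test (0.135). COL18A1, a collagen that carries heparan sulfate, rose by 1.16 in parental cells. Without TRAIL, SRGN, the intracellular proteoglycan serglycin, was 1.10 higher in TTR cells, TGFBR3, or betaglycan, was lower by 0.92, and SDC1, a syndecan, was 0.38 higher (adjusted p = 0.0354). SDC1's call was lost after quantile normalisation and without parental untreated replicate 1 or 2 or any TTR untreated array (up to 0.157).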

How the data were processed

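Total RNA was hybridised to 1-colour Affymetrix arrays, 12 in all. The authors deposited log2 values, made with RMA in Affymetrix Power Tools per the submitters' processing notes. Versions, settings and the genome build behind the features were not given in the sources used here. A value only compares a gene with the others on its array, so a change in total RNA per cell is not seen, and the number of arrays limits the precision.

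The table held 33252 features; 19460 were annotated to 1 gene, 1754 to several and 12038 to none. The feature with the highest mean was kept for each of 18417 genes. limma 3.58.1 in R 4.3.3 fitted all 12 arrays with 1 mean per group and moderated variances (8 residual and 7.87 prior degrees of freedom), with Benjamini-Hochberg adjustment over all 18417 genes and an adjusted p under 0.05 as a call. The script was tested on simulated data. SE and intervals come from that fit.

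The members and lists were chosen with earlier results of these data known. Values of every array are given for members called in both TRAIL comparisons, in the difference between the lines or between untreated lines, or that moved 2-fold; from the other lists, called genes with the smallest p. Promoters came from RefSeq (GRCh38.p14). RefSeq also lists pseudogenes of B3GAT3, EXTL2, CSGALNACT2 and TPST2, whose transcripts these features may not separate.

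Replicate numbers from the titles were checked as pairs. Deviations of same-numbered arrays correlated at 0.32, 0.15 and 0.40 in the TRAIL comparison of TTR cells, over 0.1 each. In that of parental cells they correlated at 0.11, 0.06 and 0.06, against at most 0, 0.03 and 0 with another number. Between the lines the values were 0.09, -0.03 and 0.37 without TRAIL and 0.1, -0.01 and 0.14 with TRAIL. The highest with another number were 0.3, 0.04 and -0.12 without TRAIL and -0.01, 0.07 and 0.01 with TRAIL. The labels do not say that the numbers pair the arrays, and whether they do so weakly outside the TTR comparison was not settled. Alternatives were other scalings, the mean of a gene's features, a filter on low levels, array weights, other variance priors, fits of only the groups compared, the replicate block and leaving out each array; role and list counts under other scalings were added after seeing the data. Of NDST2, no value was analysed here.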

Additional observations from a re-analysis of the deposited data

Results flagged for a closer look

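The test of the difference itself, TRAIL in TTR minus TRAIL in parental cells, passed for 17 members, with 37.2% of all genes passing it. The values that follow are differences between 2 changes on the log2 scale, and in each the change lay nearer to 0 in TTR cells. How often that held over all genes was not counted. The 9 members with a positive difference fell with TRAIL in parental cells. These were UGDH with 1.69, GLCE with 1.65, DSE with 1.21, EXTL2 with 1.20, EXTL3 with 1.19, HS2ST1 with 1.08, EXT2 with 0.95, UST with 0.49 and TPST1 with 0.47. The 8 with a negative difference rose in parental cells. These were HS6ST1 with -1.14, XYLT1 with -0.86, CHST13 with -0.76, HS3ST3A1 with -0.65, CHST14 with -0.55, B3GALT6 with -0.53, HS3ST1 with -0.41 and CHST12 with -0.39. After centring each array on its median, B3GALT6, HS3ST1, CHST12 and CHST14 no longer passed, and 11 of the 17 held under every alternative run.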

How the results depend on the processing

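In parental cells with TRAIL the number of members called was 31 and stayed between 22 and 31 in the other settings, with 24 to 29 when each array was left out in turn; the split of higher and lower moved from 17 and 14 to 6 and 16 after centring. After centring, EXT1 (-0.02), CHPF (-0.04), HS6ST2 (-0.04) and SULF2 (-0.06) of the members called as deposited changed sign, as did CHSY1 (-0.22), NDST1 (-0.24), CHST7 (-0.05) and SULF1 (-0.20) of those not called, and none of the 8 passed the test after centring. Of 772 member values under alternatives in this comparison, 693 kept their side of the threshold, and 4 gained a call. Another 71 lost the call with the same sign, and 4 lost it with a change of sign. A change of sign in a member not called in either fit is counted among the 693. For TRAIL in TTR cells the count of 4 (5.82% of all genes called) became 7 after centring (13%), 7 with array weights (17.4%), 7 with the replicate block over all 12 arrays (8.51%) and 7 with the replicate block in the groups compared (14.5%), and it ranged from 1 to 5 without 1 array. Between untreated lines the count of 4 (7.11% of all genes) became 2 after quantile normalisation (6.36%), 7 with array weights (13%) and 8 with the replicate block in the groups compared (9.21%), and it ranged from 2 to 4 without 1 array. Between the lines with TRAIL the count of 23 ranged from 22 to 26 and for the difference in TRAIL change the count of 17 ranged from 12 to 19 without 1 array; after centring the splits were 18 higher and 6 lower, and 11 and 4. In comparisons other than TRAIL in TTR cells, whether the numbers pair the arrays was not settled. There the replicate block in the groups compared gave 26 members for TRAIL in parental cells and 25 between the lines with TRAIL. The block over all arrays gave 18 for the difference in TRAIL change. Apart from the calls named here and beside the results, the cause of a change with a setting was not tested. Members near background (XYLT1, CSGALNACT1, HS6ST2, SULF1 and SULF2) limit what their small changes can show.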

Other observations

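Enzymes that degrade the chains in lysosomes and at the cell surface were measured for 17 of 21 listed. With TRAIL, 0 were called in TTR cells in limma, where 5 had an unadjusted p under 0.05, and in parental cells 7 rose and 8 fell. Of the list 88.2% were called in parental cells, against 58.8% of all genes. In TTR cells 5.82% of all genes were called, and 3794 of 18417 had an unadjusted p under 0.05. The parental split was 1 higher and 8 lower after centring and 5 and 7 after quantile normalisation. ARSB, which removes 4-O-sulfate from chondroitin and dermatan sulfate, averaged 6.44 in TTR cells with TRAIL, 6.62 in untreated TTR cells, 5.44 in parental cells with TRAIL and 6.57 in untreated parental cells. It fell by 1.13 in parental cells (adjusted p = 5.95e-08). SUMF2, a relative of the factor that activates sulfatases, fell by 1.32 (adjusted p = 6.73e-08), and HGSNAT, which acetylates heparan sulfate during its breakdown, by 1.22 (7.58e-08). Without TRAIL, HGSNAT was 0.52 higher in TTR cells (adjusted p = 0.00823) and the glucuronidase GUSB 0.41 higher (0.0292), with arrays that did not overlap; GUSB's call was lost without parental untreated replicate 1 or 2 or TTR untreated replicate 2 or 3 (adjusted p up to 0.147).

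Other enzymes of glycosaminoglycan synthesis outside the set were measured for 22 of 23 listed. In parental cells 10 rose and 4 fell with TRAIL, and in TTR cells 0 were called and 5 had an unadjusted p under 0.05. Of the list 63.6% were called in parental cells, near the 58.8% of all genes. In TTR cells 5.82% of all genes were called, and 3794 of 18417 had an unadjusted p under 0.05. The parental split depended on the scaling, with 4 higher and 10 lower after centring and 5 and 6 after quantile normalisation. DSEL, the second epimerase of dermatan sulfate, averaged 5.58 in TTR cells with TRAIL, 5.31 in untreated TTR cells, 5.44 in parental cells with TRAIL and 4.16 in untreated parental cells. It rose by 1.29 with TRAIL in parental cells (adjusted p = 1.25e-07), where DSE, the other epimerase, fell, and it was 1.15 higher in TTR than in parental cells without TRAIL (2.55e-05). HS3ST2, a 3-O-sulfotransferase, rose by 0.95 with TRAIL in parental cells (adjusted p = 2.51e-07), and CHST10, which makes the HNK-1 epitope, fell by 0.77 (5.08e-06). HAS2, a synthase of hyaluronan, was 1.20 higher in TTR than in parental cells without TRAIL (adjusted p = 0.000680).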
